A study of Mus musculus with 3 samples.

Results

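The coat and translocon genes of the early secretory pathway were followed through the 3 germ layers of E7.5 embryos (embryonic day 7.5) from ICR mice, namely the endoderm, the mesoderm and the epiblast. Members were chosen by gene symbol: Sec11, Sec13, Sec16, Sec22, Sec23, Sec24, Sec31, Sec61, Sec62, Sec63, Tmed, Ssr and Spcs genes with their number or letter, and the coatomer genes Copa, Copb1, Copb2, Cope, Copg1, Copg2, Copz1 and Copz2. This gave 45 genes on 94 probe sets, out of 18193 genes on the array with a probe set of 1 gene symbol. The RNA of a layer was measured on 1 array each (Affymetrix Mouse Genome 430 2.0), where several short oligonucleotides against 1 transcript form a probe set. The study describes its epiblast as the neuroectoderm and the primitive streak, all samples came from the embryonic region of the conceptus, and no genotype or treatment was given for any layer. The sources used here do not give the number of embryos per array. With 1 array per layer there was no replicate error, so no p-value was computed and every comparison is one of 3 arrays.

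Proteins bound for the cell surface, the extracellular space or the organelles of the secretory route enter the endoplasmic reticulum (ER) through the Sec61 channel. The signal peptidase cuts off their leader peptide there, and vesicles coated by COPII carry them on to the Golgi. COPI-coated vesicles bring escaped ER proteins and the transport machinery back. The visceral endoderm that covers the embryo at this stage is known as a secretory epithelium, which makes serum proteins and lipoproteins before the liver forms.

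The layer labels were first set against marker genes. Sox17 had an intensity of 4169.6 in endoderm, 116 in mesoderm and 51.3 in epiblast, while Kdr stood at 142, 2299.85 and 147 in endoderm, mesoderm and epiblast, and Sox2 at 72.35, 129.7 and 3032. Pax6, the other epiblast marker, went against its label, with 181 in endoderm, 92.4 in mesoderm and 121 in epiblast. Of 16 visceral endoderm markers listed, 15 were named on the array and for all 15 the endoderm value exceeded that of epiblast by 2-fold or more, with summed intensities of 88504 in endoderm, 3043 in mesoderm and 2414 in epiblast. The 10 parietal endoderm markers summed to 18599, 8350 and 4348 in endoderm, mesoderm and epiblast, and 6 trophoblast markers to 1998, 1749 and 2712. Of the parietal markers, 9 were higher in endoderm than in mesoderm, 4 of them by 2-fold or more. Thbd went the other way, with 51.0 in endoderm, 136.6 in mesoderm and 41.7 in epiblast. Most of the trophoblast sum came from Cdx2, with 1283 in endoderm, 932 in mesoderm and 1817 in epiblast. The 5 erythroid and blood markers summed to 361.5, 302 and 327 in endoderm, mesoderm and epiblast, and of these Gata1 alone passed the floor defined below. The visceral and parietal endoderm lists had their highest sums in endoderm, as most members had, and their part in the results was not tested. In bulk tissue, fewer cells of a type and less RNA per cell cannot be told apart.

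The members were higher in endoderm as a group. A gene was counted where its highest intensity on the 3 arrays passed a floor of 80.6, the median of all values, which 43 of the 45 members and 12785 of all genes did. Of the 43 members, 43 stood higher in endoderm than in epiblast, against 54.5% of all genes above the floor. After quantile normalization 39 did so, with Copg2, Copz1, Sec13 and Sec22c turning to the other side. Sec16b and Tmed6 passed the floor through their endoderm value alone, which fixed their side in advance. Copz2 was below the floor in both of these layers, and with values below the floor raised to it 42 members stood higher. At 1.5-fold or more, 26 were higher in endoderm (21.9% of all genes) and 0 lower (9.14%). At 2-fold or more, 9 were higher (12.5% of all genes) and 0 lower (4.01%). The 9 were Sec24d, Sec16b, Tmed6, Sec11c, Sec24a, Tmed3, Sec23a, Sec22a and Ssr4, or 20.9% of the 43 members. When the probe sets of a gene were averaged, 4 members (9.30%) were at 2-fold or more, beside 10.7% of all genes, so the members' share was then not above that of all genes. These were Sec24d, Sec16b, Tmed6 and Sec23a, each read by 1 probe set. Sec24a, Sec11c and Sec22a fell short because a second probe set, below the floor in every layer, entered the mean. Tmed3 and Ssr4 were averaged with probe sets above the floor that pointed the other way. With values below the floor raised to it, 7 members were at 2-fold or more (16.3%), beside 11.3% of all genes, and Sec16b and Tmed6 were no longer among them. With the floor at the 75th percentile of all values, 7 of 40 members (17.5%) were at 2-fold or more, beside 15.9% of all genes. The members' share was then close to that of all genes. The median log2 difference was 0.71 over the members, a 1.63-fold difference, and 0.05 over all genes, and it ran between 0.05 and 2.93 over the members. The difference between the members' median and that of all genes lay between 0.58 and 0.66 on the log2 scale under the 5 scalings tried, while the median of all genes itself moved by up to 0.63.

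Mesoderm and epiblast were much closer to each other. Of the 43 members, 35 had the higher value in mesoderm (46.3% of all genes) and 8 in epiblast. At 1.5-fold, 0 members were higher in mesoderm (6.76% of all genes) and 0 lower (6.38%), so that at 2-fold there were also 0 higher (3.44%) and 0 lower (3.25%). Their median log2 difference was 0.14, beside -0.02 over all genes, and the extremes were -0.32 for Sec22a and 0.43 for Copz2. The Copz2 value in epiblast was below the floor, so its difference is at least 1.04-fold. Among members above the floor in both layers, Ssr3 was highest at 0.38. Endoderm against mesoderm gave 42 members higher in endoderm (57.1% of all genes). After quantile normalization 37 members were higher in endoderm, and after cyclic loess 40. At 1.5-fold, 21 were higher (20.2%) and 0 lower (7.93%), and at 2-fold 7 were higher (11.4%) and 0 lower (3.86%). The median was 0.57 beside 0.07 over all genes. The 7 include Sec16b and Tmed6. With values below the floor raised to it, 5 members (11.6%) were at 2-fold, beside 10.1% of all genes. With the floor at the 75th percentile, 5 of 40 members (12.5%) were at 2-fold, beside 13.9% of all genes. The members' share was then not above that of all genes. The 3 comparisons share their arrays. The endoderm held the highest of the 3 values for 42 members, all but Copz2, against 47% of all genes. For Sec16b and Tmed6 this was fixed by the floor, which they passed in endoderm alone. After quantile normalization Copg2, Copz1, Sec13, Sec22c, Sec24b, Sec61a2 and Tmed5, like Copz2, had a higher value in mesoderm or epiblast than in endoderm. The order endoderm above mesoderm above epiblast held for 34 members, against 25.8% of all genes.

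**Figure D1:**
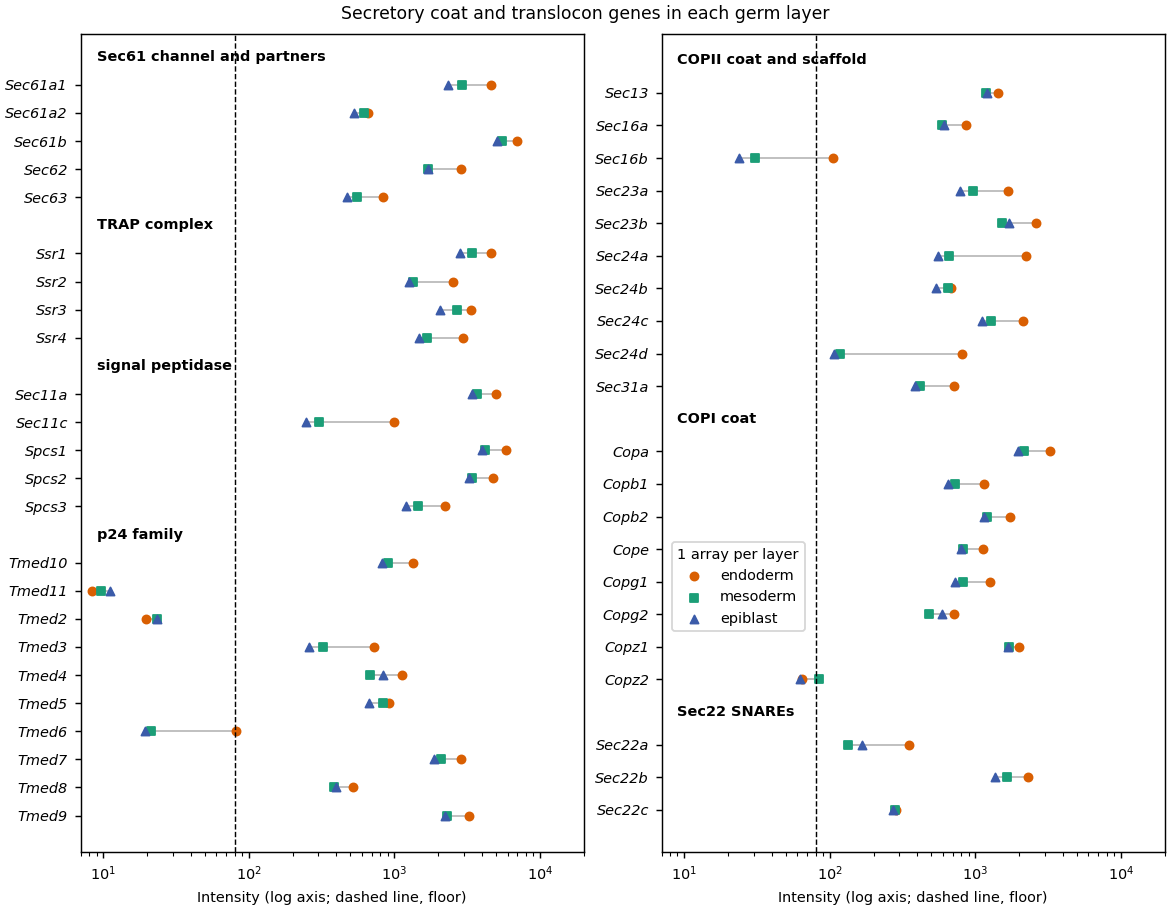
Intensity of each of the 45 members on the endoderm, mesoderm and epiblast arrays (log axis, 1 array per layer), by role, with the floor of 80.6 as a dashed line. The endoderm point lies to the right of both others for 42 of the 43 members above the floor, and the mesoderm and epiblast points mostly lie close together. Sec16b and Tmed6 pass the floor in endoderm alone, which fixed this for them.

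The Sec61 channel is the pore through which the growing chain passes. Its main alpha subunit gene Sec61a1 had 4596 in endoderm, 2912 in mesoderm and 2333 in epiblast, a log2 difference of 0.98 between endoderm and epiblast. Sec61a1 was read by 6 probe sets, and all 6 were higher in endoderm than in epiblast, with log2 differences between 0.43 and 1.18. The second alpha subunit gene, Sec61a2, was nearly level at 658 in endoderm, 616 in mesoderm and 528 in epiblast (0.32). Sec61b, the small beta subunit, had 6964, 5495 and 5046 in endoderm, mesoderm and epiblast (0.46). The channel's membrane partners were also higher in endoderm, Sec63 (0.81), which brings the chaperone BiP to the channel, and Sec62 (0.74), which serves short and late-arriving chains. None of the 5 channel genes reached 2-fold, and their median difference from epiblast was 0.74 in endoderm and 0.22 in mesoderm, with 0.59 between endoderm and mesoderm.

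The 4 genes of the TRAP complex, which sits beside the channel and helps some chains to enter it, moved by similar amounts, with log2 differences between endoderm and epiblast of 0.71 for Ssr1, 0.996 for Ssr2, 0.71 for Ssr3 and 1.02 for Ssr4. All 4 passed 1.5-fold. Ssr4 had 2974 in endoderm, 1691 in mesoderm and 1471 in epiblast, a 2.02-fold difference between endoderm and epiblast, and Ssr3 had 3368, 2682 and 2063 in endoderm, mesoderm and epiblast. Ssr2, at 2526 in endoderm, 1350.25 in mesoderm and 1267 in epiblast, lay just under 2-fold. The Ssr4 result rests on 1 probe set. Another of its probe sets read 261, 251 and 315 in endoderm, mesoderm and epiblast, and the last one 136, 119 and 145, so both pointed the other way between endoderm and epiblast.

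The signal peptidase genes differed by similar amounts with 1 exception. Sec11a, a catalytic subunit, and the accessory subunits Spcs1 and Spcs2 each differed by 0.54 on the log2 scale between endoderm and epiblast, and Spcs3 by 0.89. Spcs1 for example had 5810.3 in endoderm, 4233 in mesoderm and 3993 in epiblast. Sec11c, the other catalytic subunit, had 990.5 in endoderm, 303 in mesoderm and 246 in epiblast, so the endoderm value was 4.02-fold that of epiblast and 3.26-fold that of mesoderm. Its log2 difference between endoderm and epiblast exceeded that of Sec11a, at 4997, 3700 and 3429 in endoderm, mesoderm and epiblast, by 1.46. A second Sec11c probe set lay below the floor in every layer.

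**Figure D2:**
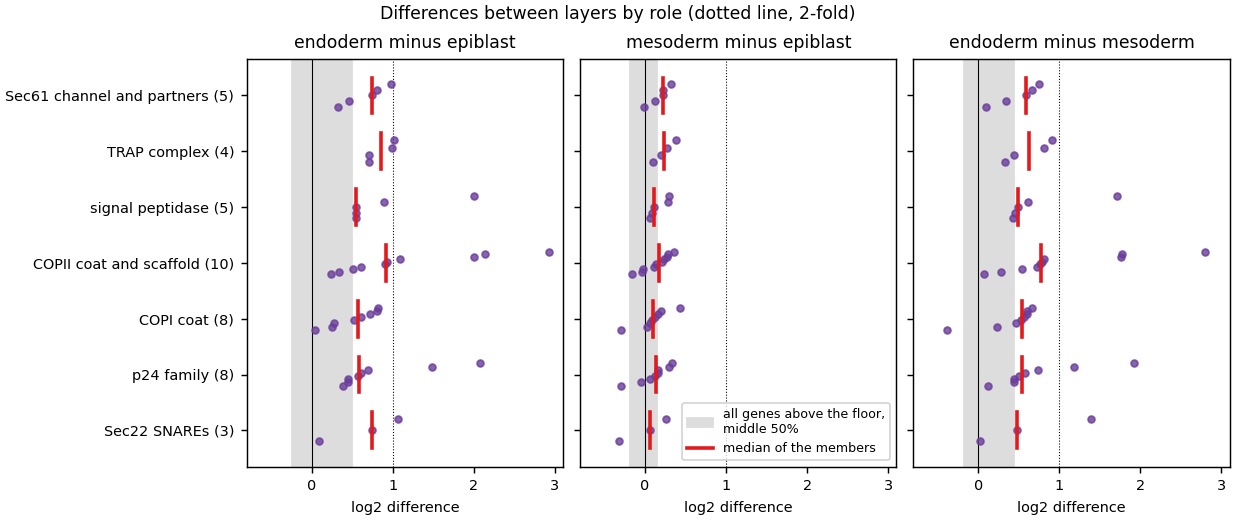
Log2 differences of the 43 members above the floor for the 3 pairs of layers, 1 point per gene, with the median of each role (red) and the middle 50% of all genes above the floor (grey). The role medians lie between 0.54 and 0.91 for endoderm minus epiblast and between 0.06 and 0.23 for mesoderm minus epiblast.

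The COPII genes included 4 of the 9 members at 2-fold or more between endoderm and epiblast, or 3 without Sec16b, which passed the floor through its endoderm value alone. The coat forms in 2 layers, an inner one of Sec23 and Sec24, in which Sec24 picks the cargo, and an outer one of Sec13 and Sec31, at ER sites marked by Sec16. Sec24d had 811 in endoderm, 117 in mesoderm and 106 in epiblast. This was the largest difference of any member, 7.63-fold between endoderm and epiblast and 6.94-fold between endoderm and mesoderm. Sec24a had 2229.6 in endoderm, 656 in mesoderm and 556 in epiblast, 4.01-fold higher in endoderm than in epiblast. The other cargo adaptors were closer to level, Sec24c with 2119, 1285 and 1111 in endoderm, mesoderm and epiblast (1.91-fold between endoderm and epiblast) and Sec24b with 679.9, 649.99 and 537 (1.27-fold). The log2 difference of Sec24d exceeded that of Sec24b by 2.59, that of Sec24c by 1.999 and that of Sec24a by 0.93, whereas for mesoderm against epiblast the 4 genes lay within 0.14 of each other. Sec24d was read by 1 probe set, and second probe sets of Sec24a, Sec24b and Sec24c lay below the floor, that of Sec24a with 59.9 in endoderm, 70.9 in mesoderm and 75.6 in epiblast.

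Apart from Sec16b, whose difference is only bounded, the other COPII genes differed less than Sec24d and Sec24a. Sec23a, which makes the Sar1 GTPase hydrolyse GTP, had 1685 in endoderm, 959 in mesoderm and 789 in epiblast, 2.13-fold higher in endoderm than in epiblast. Its close relative Sec23b had 2596, 1525 and 1703 in endoderm, mesoderm and epiblast, 1.52-fold higher in endoderm than in epiblast. Between endoderm and mesoderm both Sec23 genes were nearly the same distance apart, with log2 differences of 0.81 for Sec23a and 0.77 for Sec23b. Sec31a stood at 715, 415 and 384 (0.90). Sec13, which is also a part of the nuclear pore, had the narrowest range of the COPII genes, with 1430.2 in endoderm, 1181 in mesoderm and 1208 in epiblast. Of the scaffolds, Sec16a had 864 in endoderm, 594 in mesoderm and 607 in epiblast. Sec16b was above the floor in endoderm alone, at 106, beside 30.85 in mesoderm and 23.99 in epiblast, so its endoderm value was at least 1.31-fold that of either, and its place among the 9 rests on values below the floor.

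**Figure D3:**
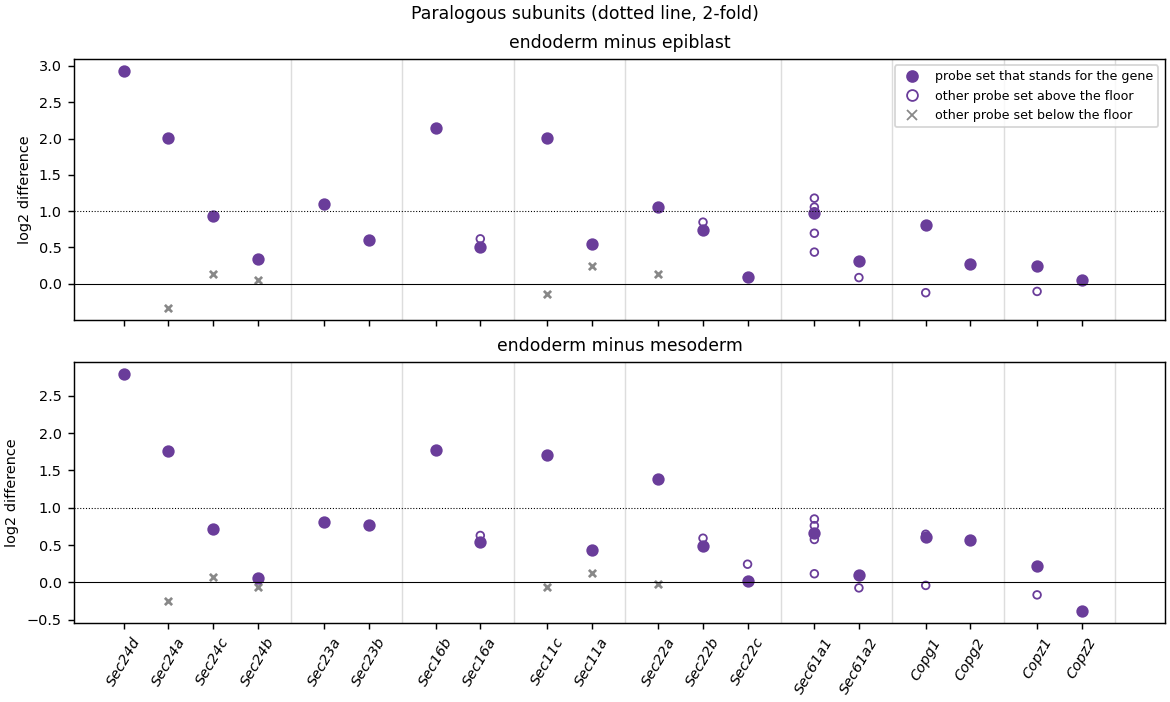
Log2 differences of paralogous subunits, endoderm minus epiblast (top) and endoderm minus mesoderm (bottom), with filled points for the probe set that stands for the gene, open points for its other probe sets above the floor and crosses for those below it. The filled points of Sec24d, Sec24a, Sec16b, Sec11c and Sec22a lie above the 2-fold line in both panels. Those of Sec24b, Sec24c, Sec16a, Sec11a, Sec22b and Sec22c lie below it. Sec16b is drawn at its measured differences, although its mesoderm and epiblast values are below the floor and bound them only at 1.31-fold or more.

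Some promoters of the members shared an element that the choice by symbol did not use. RefSeq windows running 250 bases before to 50 after each annotated start (build GRCm38.p6) were matched for 38 of the 45 members, as 41 windows. The letters searched on both strands were TGACGTGG, the core of the element bound by factors of the unfolded protein response (the UPRE core), CCACG, the CRE-like TGACGTCA, the E-box CACGTG, and the longer ER stress elements ERSE and ERSE-II. TGACGTGG contains CCACG on its other strand, so these matches overlap. TGACGTGG occurred in 5 of the 38 genes, among them Copb1, Copb2, Sec16b and Sec24d, and in 12.2% of the members' windows, beside 0.676% of all 32851 windows and 1.04% of the windows of genes above the floor. CCACG occurred in 29 of the 38 genes and in 75.6% of windows, beside 32.8% of all windows and 45.9% of those of genes above the floor. The E-box (12.2% of members' windows, 7.15% of all) and the CRE-like element (2.44% and 1.79%) were closer to their background. In windows of genes above the floor their shares were 9.6% and 2.87%, so the members' CRE-like share lay below that of these genes. ERSE and ERSE-II had 0 matches among members, beside 0.119% and 0.0365% of all windows. A match is a description of letters and says nothing about binding.

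In these 4 genes the match lay near the start site, with its first base at position -26 in Sec24d, -44 in Sec16b, -28 in Copb1 and -7 in Copb2, counted with the start as 1. They are printed to show this shared element, in the direction of transcription, with the match in capitals. It reads TGACGTGG in Sec24d and Sec16b and its reverse complement in Copb1 and Copb2. Sec16b has another annotated start, whose window held no TGACGTGG match. Which start was used in these layers was not tested. For Sec24d, the member with the largest difference, the 250 bases before the start are given (chr3:123267246-123267495, plus strand), and for the others the match with 15 bases on each side, from Sec16b (chr1:157506737-157506774, plus strand), Copb1 (chr7:114254686-114254723, minus strand) and Copb2 (chr9:98563709-98563746, plus strand).
Sec24d: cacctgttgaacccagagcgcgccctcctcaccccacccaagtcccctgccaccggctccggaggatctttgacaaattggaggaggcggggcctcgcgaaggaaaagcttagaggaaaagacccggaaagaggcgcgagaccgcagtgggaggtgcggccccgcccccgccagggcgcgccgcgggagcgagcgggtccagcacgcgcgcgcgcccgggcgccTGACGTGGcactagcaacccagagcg
Sec16b: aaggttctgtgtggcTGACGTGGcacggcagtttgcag
Copb1: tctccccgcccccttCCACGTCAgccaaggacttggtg
Copb2: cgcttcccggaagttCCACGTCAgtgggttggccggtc
Between endoderm and epiblast, Sec24d differed by 2.93, Copb1 by 0.82 and Copb2 by 0.61 on the log2 scale, and the difference of Sec16b is bounded at 1.31-fold or more.

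The COPI coatomer genes differed in size and, in mesoderm, in direction. Of the 8 genes, 4 passed 1.5-fold and 0 passed 2-fold between endoderm and epiblast, with a median of 0.56. Copb1, the beta subunit, had 1148 in endoderm, 728 in mesoderm and 651 in epiblast, the widest range of the group (1.76-fold between endoderm and epiblast). Copg1 (0.80), Copa (0.72), Copb2 (0.61) and Cope (0.52), which encode the gamma, alpha, beta prime and epsilon subunits, followed. The gamma and zeta subunits each have a second gene. Copg1 had 1257 in endoderm, 826 in mesoderm and 721 in epiblast, while Copg2 had 715, 484 and 592 in endoderm, mesoderm and epiblast, so that Copg2 alone of the COPI genes was lower in mesoderm than in epiblast. Copz1 was nearly level, with 2004 in endoderm, 1713 in mesoderm and 1689 in epiblast. Copz2 passed the floor in mesoderm alone, at 83.95, beside 64.5 in endoderm and 62.5 in epiblast.

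The p24 proteins, encoded by the Tmed genes, cycle between the ER and the Golgi and help to load cargo such as lipid-anchored proteins. Of 10 genes on the array 8 passed the floor, with a median difference of 0.58 between endoderm and epiblast. Tmed3, of the gamma subfamily, had 729 in endoderm, 321 in mesoderm and 261 in epiblast, 2.79-fold higher in endoderm than in epiblast. A second Tmed3 probe set pointed the other way, with 92.9 in endoderm, 99.4 in mesoderm and 105 in epiblast. Tmed6, another gamma member, reached the floor in endoderm alone, at 81.1, beside 21.4 in mesoderm and 19.25 in epiblast, which bounds its difference at 1.01-fold or more. Its place among the 9 therefore rests on values below the floor as well.

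The remaining gamma genes were Tmed7 (0.60) and Tmed5, which had 913 in endoderm, 842 in mesoderm and 672 in epiblast. Between endoderm and epiblast, the 4 Tmed7 probe sets above the floor differed by 0.60 to 1.02, the highest past 2-fold. The 4 of Tmed5 ran from -0.05 to 0.44. The alpha genes Tmed4 (0.44) and Tmed9 (0.57) and the delta gene Tmed10 (0.69) stayed under 2-fold between endoderm and epiblast, as did Tmed8 (0.39). Tmed4 was lower in mesoderm than in epiblast, at 1135 in endoderm, 683 in mesoderm and 836 in epiblast. The alpha gene Tmed11 lay below the floor in every layer and was left out of the counts. The beta gene Tmed2 was left out too, because the probe set that carries its symbol alone read 19.6 in endoderm, 23.5 in mesoderm and 23.3 in epiblast. This does not give the level of Tmed2, since 6 probe sets shared with the predicted gene Gm10698 were all above the floor, the dimmest at 664, 449.5 and 325 in endoderm, mesoderm and epiblast and the brightest at 7556, 5565 and 4550.1. In all, 12 probe sets carry Tmed2, Tmed10, Sec61b or Sec61g together with another symbol and were not assigned, and all 12 were higher in endoderm than in epiblast, by 0.30 to 1.03 on the log2 scale.

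Sec22b is the SNARE that helps vesicles fuse between the ER and the Golgi, and Sec22a and Sec22c are its relatives. Sec22a had 348 in endoderm, 133 in mesoderm and 167 in epiblast, so that endoderm held 2.09-fold the value of epiblast and 2.61-fold that of mesoderm. A second Sec22a probe set lay below the floor in every layer, with 27.7 in endoderm, 28.0 in mesoderm and 25.1 in epiblast. Sec22b had 2299, 1647 and 1376 in endoderm, mesoderm and epiblast, a 1.67-fold difference between endoderm and epiblast. Sec22c was level across the layers, with 287 in endoderm, 282 in mesoderm and 270.1 in epiblast.

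The agreement between probe sets of the same gene gave the only error within these arrays. In 19 members with several probe sets above the floor, the pooled SD of the log2 difference within a gene was 0.34 for endoderm minus epiblast, 0.15 for mesoderm minus epiblast and 0.29 for endoderm minus mesoderm (55 probe sets). This is a spread between probes on the same RNA, not between embryos. For endoderm minus epiblast, probe sets of 5 members had opposite signs (Copg1, Copz1, Ssr4, Tmed3 and Tmed5), and those of Ssr4 and Tmed3 lay over 2-fold apart, so both are uncertain. Of the 79 member probe sets above the floor, 73 were higher in endoderm than in epiblast, with a median of 0.62, while of the 15 below it 7 were, with a median of -0.07.

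**Figure D4:**
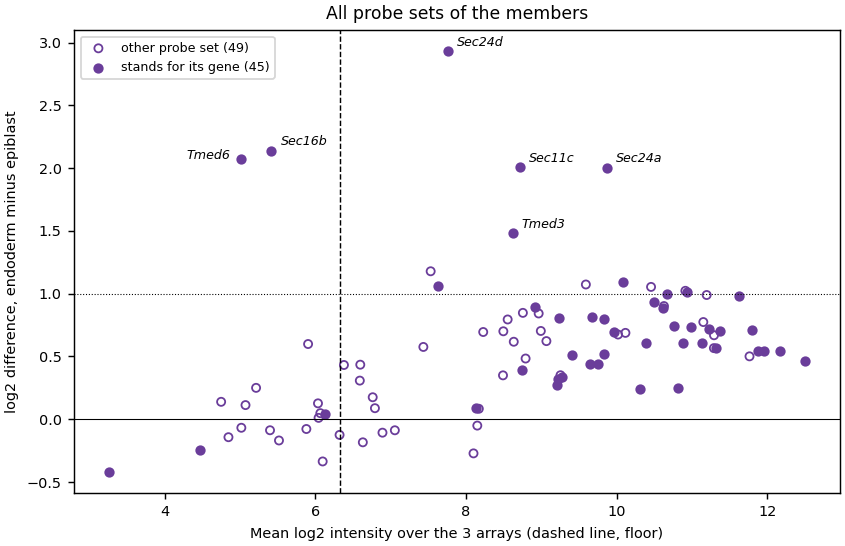
Log2 difference between endoderm and epiblast for all 94 probe sets of the members, against their mean log2 intensity over the 3 arrays, with filled points for the probe set that stands for its gene. Of the 79 probe sets that pass the floor on their highest value, 73 lie above 0, and the open points to the left of the dashed line scatter around 0. No share over all probe sets was computed for comparison.

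Other genes of the same route were taken from lists by function. Cargo and KDEL receptors, which collect cargo or return escaped ER proteins, had the highest median difference between endoderm and epiblast (0.89), with 5 of 15 genes at 2-fold or more, beside 12.5% of all genes. Kdelr3 had 923 in endoderm, 76.3 in mesoderm and 35.8 in epiblast, an endoderm value at least 11.4-fold that of either, and Kdelr1 had 1973, 1181 and 912 in endoderm, mesoderm and epiblast. Bcap29, a cargo receptor of the ER membrane, had its peak in mesoderm instead, with 165 in endoderm, 309 in mesoderm and 134 in epiblast. The oligosaccharyltransferase, which adds sugar chains at the channel, had a median of 0.72 and 1 of 11 genes at 2-fold or more, near the 12.5% of all genes. This was Magt1, with 2652 in endoderm, 1692 in mesoderm and 1298 in epiblast.

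ER chaperones and disulfide isomerases had a median of 0.65 with 3 of 18 at 2-fold or more, led by the disulfide isomerase Pdia5 with 1209 in endoderm, 289 in mesoderm and 223 in epiblast (5.43-fold between endoderm and epiblast). Creld2 (1.22) and Dnajc3 (1.06) followed. Tethers and SNAREs had a median of 0.64 with 3 of 14 (Stx18, Uso1 and Gosr1), and the delta subunit of COPI with the Arf GTPases and their accessory genes 0.61 with 1 of 9. This was Arfgap3, which switches off Arf1, with 314 in endoderm, 88.2 in mesoderm and 65.3 in epiblast, which puts endoderm at least 3.89-fold above epiblast. The COPII GTPases and accessory genes (0.50, 1 of 9, Ctage5), the ER membrane complex (0.50, 1 of 10, Emc7) and the signal recognition particle with its receptor (0.43, 1 of 7, Srprb) had the lowest medians. Counts of 1 gene in a list of this length lie near the 12.5% of all genes, and 3 of 18 or 3 of 14 are not far above it. In each of the 8 lists 0 genes were 2-fold lower in endoderm than in epiblast, where 4.01% of all genes were, so that 0 in lists this short is also near the share of all genes. Over the 43 members the median was 0.71, inside the range of the lists.

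**Figure D5:**
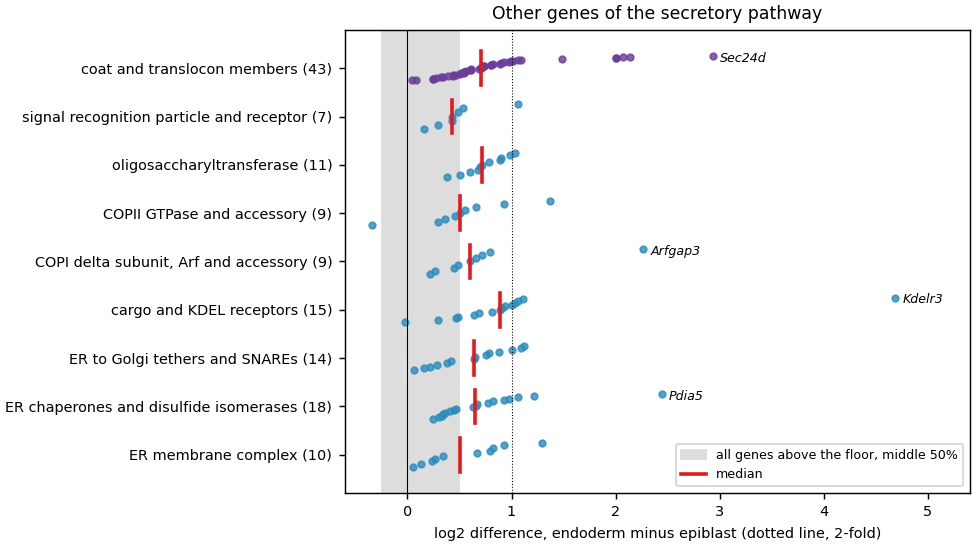
Log2 difference between endoderm and epiblast for the members and for 8 other lists of secretory pathway genes (genes above the floor, number in brackets), with medians in red and the middle 50% of all genes in grey. The list medians lie between 0.43 and 0.89, and Kdelr3 is drawn at its measured difference of 4.69, although its mesoderm and epiblast values are below the floor and bound the difference only at 11.4-fold or more.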

How the data were processed

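As the labels and methods state, 100 ng of RNA from each layer was labelled with biotin and hybridised, and Robust Multiarray Average (RMA) was used for background and normalization by the authors. The deposited intensity values are on a linear scale, while RMA usually gives log2, and no source used here names the step between. The array medians were 79.9, 79.9 and 82.2 in endoderm, mesoderm and epiblast, and 0 sample columns were left unused. Detection calls were not used here. Precision is limited by the number of arrays.

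Of 45037 probe sets, 34945 had 1 symbol in the platform annotation, 932 several and 9160 were not named there. Each gene was represented by its probe set of highest mean log2. A member has a prefix and only a number or letter after it, so Sec23ip was left out, and Sec31b, Sec61g and Tmed1 were not among the probe sets with 1 symbol. Values were converted to log2 and subtracted, and a gene counted as differing at 2-fold where its highest value passed the floor of 80.6. A fold against a value below the floor was computed with that value raised to it and given as "at least". No test was made, since Significance Analysis of Microarrays, named in the methods, needs replicates. Values were given for members at 2-fold in any pair, for the widest and narrowest range in each role, for paralogs, and for up to 3 genes per other list. The members, roles and lists were chosen with earlier results of these data known. Promoter windows were from RefSeq, 1 matching sequence is not reported here, and protein sequences were not used here. The counting was tested on simulated data. Python 3.11.15, pandas 2.3.3, R 4.3.3 and limma 3.58.1 (cyclic loess) were used. Alternatives were other probe set rules, floors at the 25th and 75th percentile, 4 other scalings, floored values, log2 of the value plus 16, folds of 1.5 and 3, and Sec23ip as a member.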

Additional observations from a re-analysis of the deposited data

How the results depend on the processing

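Centring the arrays on 9 housekeeping genes, where Hprt was the median gene on every array, raised the members' median log2 difference to 1.33 between endoderm and epiblast, 1.003 between endoderm and mesoderm and 0.33 between mesoderm and epiblast, and the members at 2-fold higher in endoderm to 36 against epiblast and 22 against mesoderm. It moved the median of all genes by 0.63 as well, and 30.1% of all genes then stood 2-fold above epiblast in endoderm and 1.26% below, against 12.5% and 4.01% as deposited. With the mean of all probe sets per gene, 4 members (9.30%) were at 2-fold against epiblast and 3 (6.98%) against mesoderm, beside 10.7% and 10.1% of all genes, so the higher share of members at 2-fold was not kept, while the members' median stayed at 0.61 and 0.50. Probe sets below the floor also entered these means. By construction a 1.5-fold limit gave 26 and 21, and a 3-fold limit 5 against epiblast. Ssr4 turned to -0.27 between endoderm and epiblast when probe sets whose names end in _x_at or _s_at were passed over. Sec24d was at 2-fold or more in endoderm against both other layers under all 10 settings of probe set, floor, scaling and dim values. It has 1 probe set and values above the floor in every layer. The probe set rules, floors and floored values therefore could not change its difference. Sec24a and Sec11c were at 2-fold or more against both layers under 9 of the 10. They fell short only where a second probe set below the floor was averaged in. Against epiblast, Sec23a stayed at 2-fold or more under 8 of the 10 settings, Sec22a under 7 and Ssr4 under 6. Quantile normalization left 6 members (13.95%) at 2-fold against epiblast, beside 9.6% of all genes. The members' median kept its direction in each pair under all alternatives. No paired analysis was possible because each layer had 1 array, so no replicate could be left out either. Low signal limits Sec16b, Tmed6 and Copz2, whose highest values were near the floor.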
